A study of Macaca fascicularis with 12 samples.

Results

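The constitutive proteasome genes were taken as all probe sets whose single gene symbol in the array's annotation begins with PSMA, PSMB, PSMC, PSMD, PSMF or PSMG and a digit, without the interferon-inducible PSMB8, PSMB9 and PSMB10. This gave 65 of 52865 probe sets, which carry 29 gene symbols. A further 6 probe sets name such a gene together with another gene and were left out. All 29 symbols occur in the RefSeq table of Macaca fascicularis genes (assembly T2T-MFA8v1.1). The set holds 4 genes of the alpha ring, 2 structural and 4 catalytic genes of the beta rings, 5 of the ATPase ring, 2 other base subunits, 5 lid subunits, the base assembly chaperone PSMD9, the core assembly chaperones PSMG1 to PSMG4, the regulator PSMF1 and PSMC3IP. Genes of other proteasome subunits were not analysed here. The label does not describe every member: PSMC3IP is a recombination cofactor named for its binding to an ATPase subunit, PSMB11 is the catalytic subunit of the thymus, and the PSMG proteins, PSMD9 and PSMF1 bind the complex without being lasting parts of it.

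The samples came from the brains of 3 adult male cynomolgus macaques. The left hemisphere of each animal received 4 injections into the striatum of the baculovirus vector BV-HSVtk, with 1e8 particles in 10 µL at each site; its name refers to the thymidine kinase of herpes simplex virus. The right hemisphere received a mock preparation, Sf9 insect cell medium without virus that had passed the same purification by membrane chromatography and high-speed centrifugation. After 2 days, tissue was collected as 2 pieces per hemisphere, each of about 100 mg, which gave 12 arrays, 6 BV and 6 mock. Odd replicate numbers are piece 1 and even numbers piece 2, and replicates 1 and 2 are animal 1, 3 and 4 animal 2, and 5 and 6 animal 3. Side of the brain and treatment cannot be told apart, since virus always went left. Values below are log2 signals, the mean of the pieces of a hemisphere, and a log2 difference is BV minus mock ± its standard error from limma over 3 animals.

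The proteasome degrades proteins that carry ubiquitin chains. Its core is a stack of outer alpha rings and inner beta rings, in which PSMB6, PSMB5 and PSMB7 carry the active sites; a regulatory particle with a ring of ATPases (PSMC genes), further base subunits and a lid (PSMD genes) binds, unfolds and feeds in the substrate. Interferon makes cells build a variant, the immunoproteasome, in which PSMB9, PSMB8 and PSMB10 take the places of these constitutive active subunits, and which yields more peptides fit for presentation on MHC class I. Neurons and glia at rest mostly hold the constitutive form.

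Tissue markers bear on all that follows. Brightest probe sets of 7 tested genes of medium spiny neurons, the main neurons of the striatum, had mean log2 signals between 5.59 and 9.38 in the BV arrays and between 5.98 and 10.39 in the mock arrays. All 7 read lower on the BV side; their median log2 difference was -0.97, and it was -1.64, 0.99 and -2.28 in animals 1, 2 and 3. Of 10 thalamic markers 8 were higher in BV tissue (median 0.55), and their mean signal ran from 7.07 to 9.04 in BV and from 6.68 to 9.16 in mock arrays. Pan-neuronal markers (6 genes) had a median of 0.17, astrocyte markers (7 genes) 0.00, oligodendrocyte markers (3 genes) -0.02, microglial and macrophage markers (12 genes) 0.34, lymphocyte markers (5 genes) 0.55 and blood and endothelial markers (5 genes) 0.13, while 11 interferon-stimulated genes had 2.13. The actin 3'/5' signal ratio, a sign of RNA integrity, was 2.40 in mock replicate 6 and between 1.1 and 1.4 on the other 11 arrays. In bulk tissue, fewer cells of a type and less RNA per cell cannot be told apart. The part of these differences in the proteasome values was not tested beyond the covariate fits given below.

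No proteasome gene passed the test between BV and mock tissue after adjustment. With each gene represented by its brightest probe set, 0 of 29 genes passed in limma at an adjusted p of 0.05 (smallest 0.524, for PSMG1), where 0.0538% of the 11143 genes tested and 0.0284% of all tested probe sets passed, so that a count of 0 among 29 says nothing particular about these genes. At an unadjusted p under 0.05 there were 3, PSMA3 and PSMD11 with higher and PSMG1 with lower values, against 8.69% of all genes (5.81% higher and 2.88% lower). Their unadjusted 95% intervals were 0.01 to 0.59 for PSMA3, 0.05 to 1.23 for PSMD11 and -0.67 to -0.15 for PSMG1. These come from the same fit and leave out 0 because the genes were chosen by that p, so they add no support. With the 6 replicate numbers as a block on single arrays the count of passing proteasome genes was again 0. In 28 of the 29 genes the log2 difference was smaller than 0.5 in size, as it was in 90.4% of all genes. All 29 genes had a probe set above the intensity filter, and 60 of the 65 probe sets passed it.

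**Figure D1:**
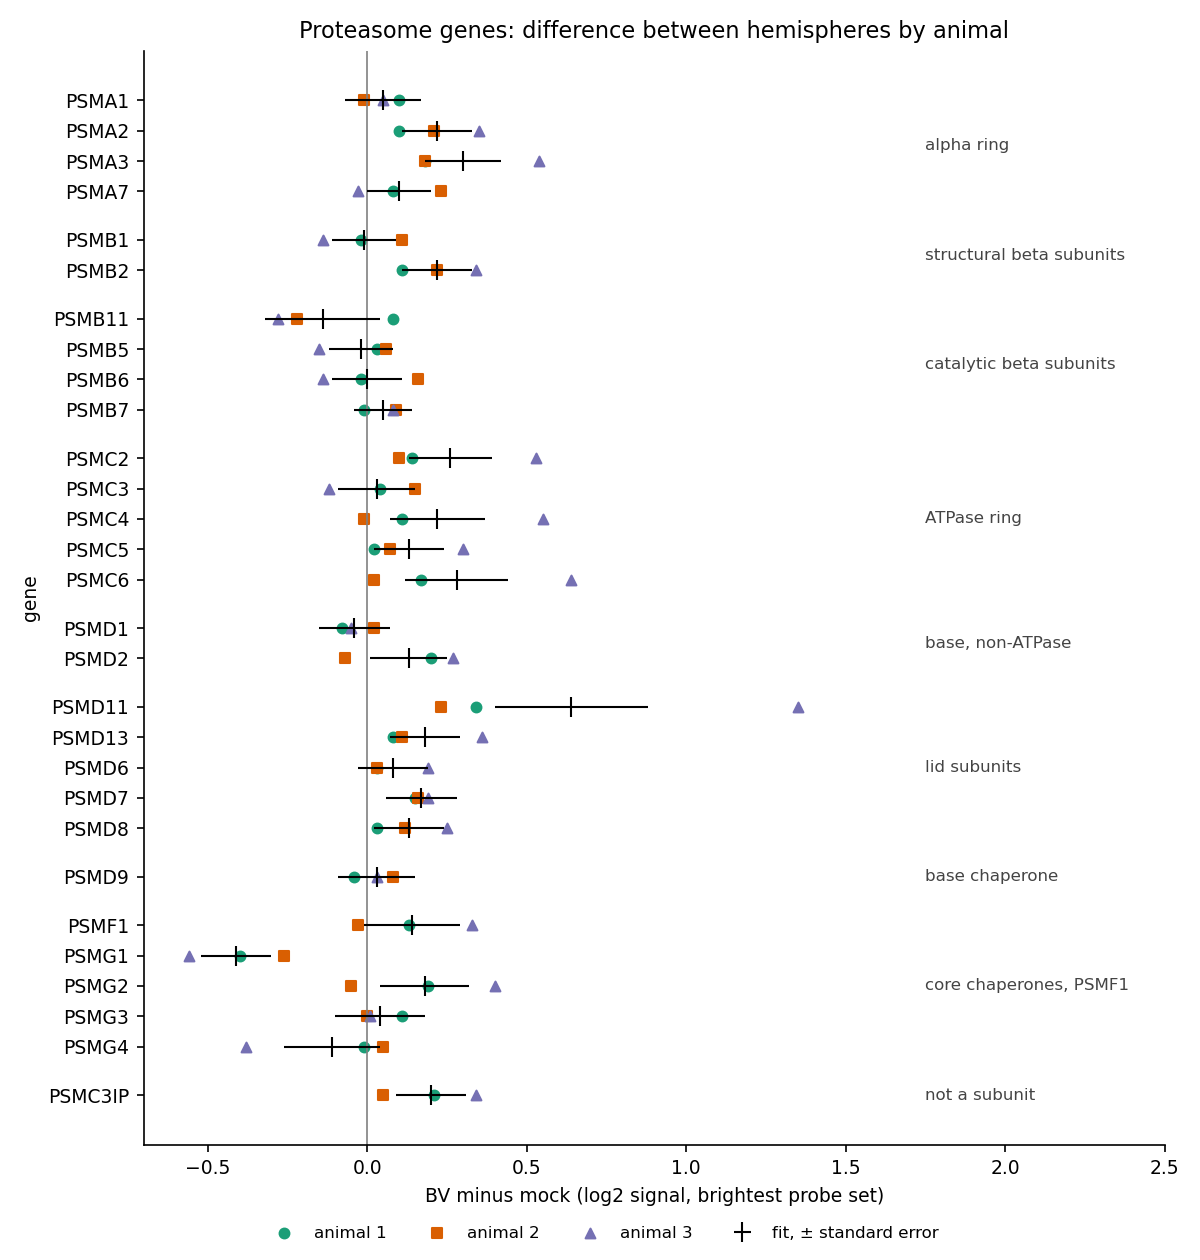
Log2 difference between the BV and the mock hemisphere for the brightest probe set of each proteasome gene, grouped by place in the complex; coloured symbols are the 3 animals and black bars the fitted value with its standard error. Most genes lie within 0.3 of 0, with PSMD11 at 0.64 and PSMG1 at -0.41, and animal 3 is often the farthest to the right among ATPase and lid genes.

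Small differences in favour of BV were more frequent than the reverse. Of the 29 genes, 22 read higher and 7 lower on the BV side (75.9% higher), against 50.5% higher among all genes tested, and the median log2 difference was 0.13 against 0.00. In animals 1, 2 and 3 the medians were 0.08, 0.07 and 0.19, with 22, 22 and 20 genes higher. Values were higher in all 3 animals for 13 genes and lower in all 3 for PSMG1 alone; among all genes 18.1% were higher and 15.1% lower in all 3. The hemispheres of the groups did not overlap for 5 genes with higher BV values (PSMA3, PSMC5, PSMD6, PSMD8 and PSMD11) and for 0 with lower, where 5.20% and 5.14% of all genes did so. The 1079 genes whose signal lay between the quartiles of the proteasome genes (9.56 to 10.80) had a median log2 difference of 0.01 and 51.6% higher values. The proteasome median was 0.07 without mock replicate 6, with 22 genes higher, and 0.05 without BV replicate 2, 0.06 without BV replicate 5 and 0.06 without animal 3. Fits with a tissue covariate used single arrays with the replicate numbers as a block, so pieces of a hemisphere counted as replicates. The median was 0.00, with 14 genes higher, when the mean signal of the thalamic markers was the covariate. With that of the medium spiny neuron markers it was 0.08, with 21 higher. Of 10 thalamic markers 8 were themselves higher in BV tissue, so covariate and treatment overlap in that fit.

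The surplus differed between the replicate pairs. In the replicate pairs of piece 1 the median over the 29 genes was -0.07 in animal 1, -0.12 in animal 2 and 0.16 in animal 3, and in those of piece 2 it was 0.22, 0.29 and 0.19. The genes with higher BV values numbered 10, 9 and 23 of 29 in the piece 1 pairs of animals 1, 2 and 3, and 23, 24 and 18 in the piece 2 pairs. The piece 1 pair of animal 3 thus lay with the piece 2 pairs. In replicates 1 to 6 the mean thalamic marker signal was 8.97, 9.01, 9.04, 7.80, 7.89 and 7.07 on BV arrays. On the mock arrays it was 9.15, 7.57, 9.16, 7.04, 6.68 and 6.82. It was thus lower in BV in replicates 1 and 3, the pairs with negative proteasome medians, and higher in the other pairs. The mean medium spiny neuron signal did not divide the pairs in that way. It was higher in BV in replicates 1, 3 and 4, with 9.38 against 8.99 in replicate 4, where the proteasome median was 0.29. Whether tissue content has a part in this pattern was not tested beyond the covariate fits. Medians over all genes tested lay between -0.03 and 0.03 in the 6 pairs. Those over the 1079 genes of like signal were -0.05, -0.04 and 0.02 in piece 1 and 0.02, 0.07 and 0.07 in piece 2. Over the 3 animals the proteasome median was -0.01 in piece 1, with 14 genes higher, and 0.24 in piece 2, with 25 genes higher. The genes of like signal also had the higher median in piece 2 in each animal, by smaller amounts in animals 1 and 2. The BV minus mock difference was larger in piece 2 than in piece 1 for 24 of the 29 genes, and the share among all genes is not given here. In a limma test of that difference on single arrays, chosen after these values were seen, 0 of 29 passed (adjusted p = 1 for PSMC6, the smallest unadjusted p); at an unadjusted p under 0.05 there were 2, PSMC6 and PSMC4, against 2.39% of all genes (0% after adjustment). Piece 1 and piece 2 arrays also differ in their deposited scale, so place in the tissue and array set cannot be told apart.

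**Figure D2:**
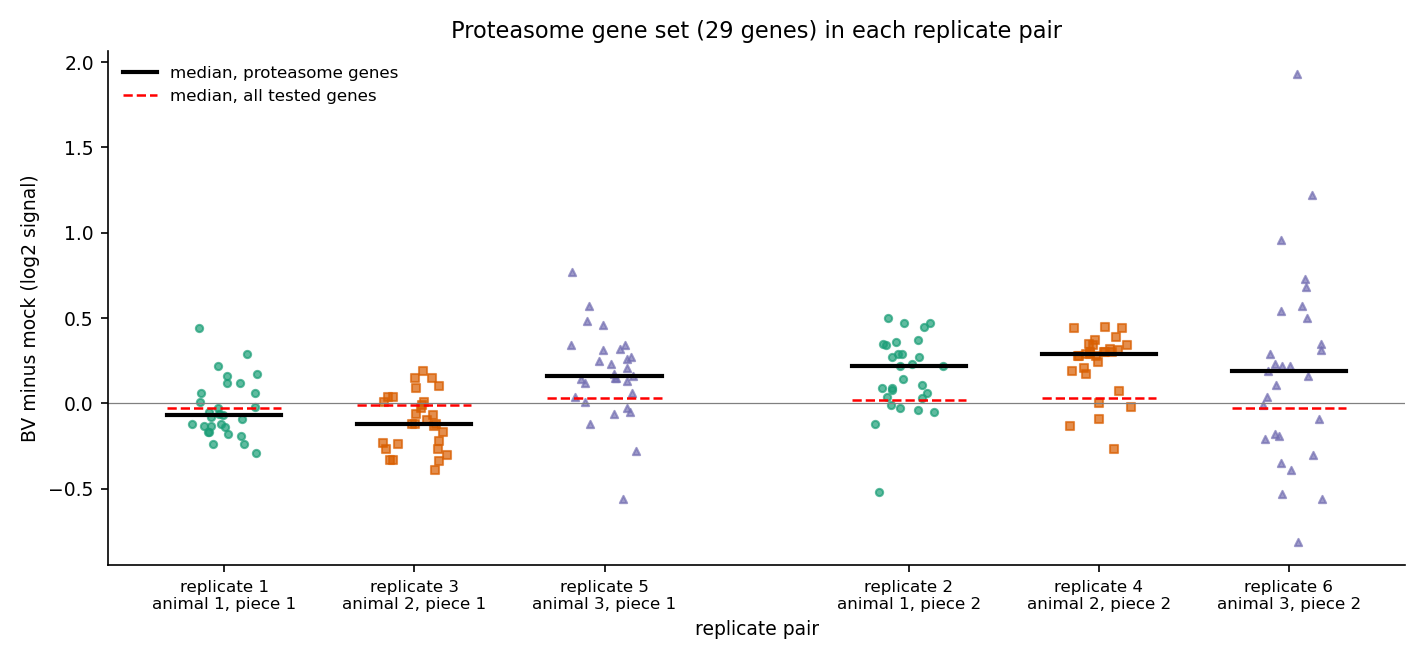
Log2 difference of each of the 29 genes in the 6 replicate pairs (one symbol per gene, coloured by animal), piece 1 on the left and piece 2 on the right, with the median of the proteasome genes (black) and of all tested genes (red, dashed). The black lines lie at -0.07, -0.12 and 0.16 for piece 1 and at 0.22, 0.29 and 0.19 for piece 2, and the spread is widest in replicate 6.

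The constitutive active subunits PSMB5, PSMB6 and PSMB7 read nearly alike on both sides. PSMB5, which has the chymotrypsin-like activity, had log2 signals of 10.94, 10.88 and 10.82 in the BV hemispheres of animals 1, 2 and 3 and 10.91, 10.82 and 10.97 in the mock hemispheres. These overlap fully, with a log2 difference of -0.02 ± 0.10 (95% interval -0.27 to 0.23; limma adjusted p = 0.939). PSMB6, with the caspase-like activity, had 10.59, 10.87 and 10.95 in BV and 10.61, 10.71 and 11.09 in mock tissue, a difference of 0.00 ± 0.11 (interval -0.27 to 0.26; limma adjusted p = 0.996). PSMB7, with the trypsin-like activity, had 10.95, 11.19 and 11.31 in BV and 10.96, 11.10 and 11.23 in mock tissue, and differed by 0.05 ± 0.09 (interval -0.18 to 0.28; limma adjusted p = 0.825). For PSMB6 and PSMB7 the animals were ordered alike in both hemispheres, and differences between animals were larger than those between treatments. The intervals still allow changes of up to about 0.28 either way on the log2 scale. PSMB11, which was dim, had 5.35, 5.17 and 4.96 in BV and 5.27, 5.39 and 5.24 in mock tissue, a difference of -0.14 ± 0.18 (limma adjusted p = 0.748), with overlapping groups.

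Their interferon-inducible partners had far larger differences in the same tissue, though these did not pass either. PSMB8, which replaces PSMB5, had log2 signals of 8.63, 9.49 and 10.89 in BV and 7.29, 8.80 and 8.17 in mock hemispheres, higher in BV in 6 of 6 replicate pairs. Its log2 difference was 1.58 ± 0.37 (limma adjusted p = 0.470). In replicate pair 6, which holds mock replicate 6 with its high actin ratio, it was 3.70, against 0.54 to 1.84 in the other pairs. PSMB10, which replaces PSMB7, had 9.39, 9.65 and 10.83 in BV and 8.95, 9.37 and 9.66 in mock tissue, a difference of 0.63 ± 0.20 (limma adjusted p = 0.564), again higher in 6 of 6 pairs. Its other probe set differed by 1.17 ± 0.27 (limma adjusted p = 0.459), also in 6 of 6 pairs and with no overlap between the groups. The activator subunit PSME2, part of the interferon-inducible PA28 cap that opens the core, had 10.16, 10.47 and 11.78 in BV and 9.08, 9.91 and 9.74 in mock tissue, with no overlap and a difference of 1.23 ± 0.27 (limma adjusted p = 0.45). For PSME2 too replicate pair 6 was the largest, at 2.73, against 0.46 to 1.43 in the other pairs. Without animal 2 these 3 genes passed, at 2.03 (adjusted p = 0.00082), 0.81 (0.0422) and 1.57 (0.000809) in limma, and with other animals or single arrays left out they did not. The fit without animal 2 left out the animal with the smallest differences (for PSMB8 0.69, against 1.34 and 2.72). The share of all tested probe sets that passed in that same fit is not given here. These passes therefore say nothing particular about the 3 genes. The count over all tested probe sets, 9 in the main fit, ran from 0 to 1845 with animals or arrays left out. The differences of the 3 genes then ran from 1.02 to 2.03, 0.36 to 0.83 and 0.82 to 1.57.

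**Figure D3:**
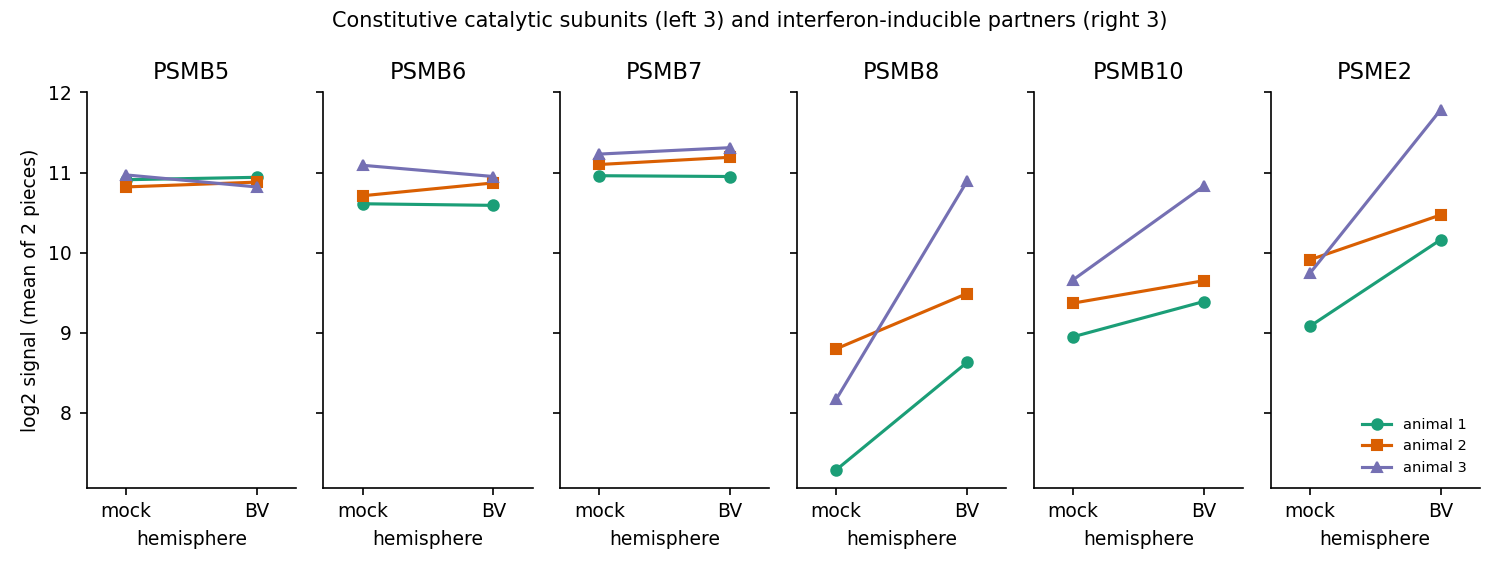
Log2 signal in the mock and the BV hemisphere of each animal, joined by a line, for the constitutive active subunits PSMB5, PSMB6 and PSMB7 and the interferon-inducible PSMB8, PSMB10 and PSME2. Lines are nearly flat in the left 3 panels (differences of -0.02, 0.00 and 0.05) and slope upward in every animal in the right 3; levels of different genes cannot be compared with each other.

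The difference within each pair of exchangeable subunits was compared directly. PSMB8 gained 1.31, 0.63 and 2.87 on PSMB5 in animals 1, 2 and 3, a mean of 1.60 ± 1.15 (SD, n = 3; exact two-sided sign-flip permutation p = 0.25, adjusted 0.25). PSMB10 gained 0.46, 0.19 and 1.09 on PSMB7, a mean of 0.58 ± 0.46 (SD, n = 3; exact permutation p = 0.25, adjusted 0.25), with the brightest PSMB10 probe set, which had the smaller difference. Both differences were positive in 3 of 3 animals, and 0.25 is the smallest p that 3 animals allow in this test. There were 2 such comparisons, since PSMB9 was not analysed here.

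In the alpha ring, whose outer subunits gate the entry to the core, all 4 genes had higher values in BV tissue, with a median of 0.16, and 0 of 4 passed. PSMA3 had 10.91, 10.80 and 11.18 in BV and 10.72, 10.62 and 10.64 in mock hemispheres. The lowest BV value lay above the highest mock value, and the log2 difference was 0.30 ± 0.12 (limma adjusted p = 0.564), positive in 6 of 6 pairs. In replicate pairs 1 and 3 it was only 0.01 and 0.04. The other tested PSMA3 probe set had 0.31 ± 0.15 and was positive in 4 of 6 pairs, with -0.09 in each of replicate pairs 1 and 3. PSMA2 differed by 0.22 ± 0.11, PSMA7 by 0.10 ± 0.10 and PSMA1 by 0.05 ± 0.12. Of the structural beta genes, PSMB2 had 10.62, 10.76 and 11.02 in BV and 10.51, 10.54 and 10.68 in mock tissue, a difference of 0.22 ± 0.11 (limma adjusted p = 0.569) that was positive in each animal, with the groups overlapping. PSMB1 differed by -0.01 ± 0.10.

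The 5 ATPase genes, which form the ring that unfolds substrates, all had higher values in BV tissue, with a median of 0.22, and 0 of 5 passed. The median was 0.11, 0.07 and 0.53 in animals 1, 2 and 3. PSMC2 had 10.51, 10.67 and 10.71 in BV and 10.36, 10.57 and 10.18 in mock hemispheres, a difference of 0.26 ± 0.13 (limma adjusted p = 0.569). PSMC6 had 9.72, 9.72 and 9.65 in BV and 9.55, 9.70 and 9.01 in mock tissue, a difference of 0.28 ± 0.16 (limma adjusted p = 0.579). In both genes the BV values lay close together and the mock value of animal 3 was the low one. That value is the mean of mock replicates 5 and 6, and the actin ratio was highest in mock replicate 6. PSMC6 read 8.43 in mock replicate 6 and 9.53 to 9.77 on the other mock arrays. Without that array PSMC6 differed by 0.08 and PSMC2 by 0.16. PSMC4, PSMC5 and PSMC3 differed by 0.22 ± 0.15, 0.13 ± 0.11 and 0.03 ± 0.12. Whether the RNA of that array has a part in these values was not tested further.

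Of the base subunits outside the ATPase ring, PSMD2, a scaffold that receives ubiquitin-like shuttles, had 10.21, 10.26 and 10.13 in BV and 10.01, 10.33 and 9.86 in mock tissue, a difference of 0.13 ± 0.12 (limma adjusted p = 0.673) with overlapping groups. The other scaffold, PSMD1, differed by -0.04 ± 0.11. The 5 lid genes all had higher values in BV tissue, with a median of 0.17, and 0 of 5 passed. PSMD11, a lid scaffold subunit, showed the largest difference among the brightest probe sets. It had 9.42, 9.64 and 9.77 in BV and 9.07, 9.41 and 8.42 in mock hemispheres, so that each BV value lay above each mock value. The log2 difference was 0.64 ± 0.24 (a 1.56-fold ratio; limma adjusted p = 0.564), made of 0.34, 0.23 and 1.35 in animals 1, 2 and 3 and positive in 6 of 6 pairs. Mock replicate 6 read 7.71 for this gene against 9.02 to 9.45 on the other mock arrays, and without it the difference was 0.40. Its second probe set had 0.47 ± 0.24, with the groups not overlapping. PSMD13, PSMD7, PSMD8 and PSMD6 differed by 0.18 ± 0.11, 0.17 ± 0.11, 0.13 ± 0.11 and 0.08 ± 0.11.

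Among the assembly factors PSMG1 stood on the other side. PSMG1, which with PSMG2 forms the chaperone that starts the alpha ring, had 10.92, 10.29 and 10.86 in BV and 11.33, 10.55 and 11.42 in mock hemispheres. Within each animal the BV value was lower, by 0.40, 0.26 and 0.56, and it was lower in 6 of 6 replicate pairs, although the groups overlap because animal 2 was low on both sides. The log2 difference was -0.41 ± 0.11 (95% interval -0.67 to -0.15; limma adjusted p = 0.524, and 0.139 with the replicate numbers as a block). Values from -0.51 to -0.31 were obtained with single arrays or animals left out. A second PSMG1 probe set differed by -0.04 ± 0.11, with mock values of 10.23, 10.29 and 10.41. PSMG2, PSMG3 and PSMG4 differed by 0.18 ± 0.14, 0.04 ± 0.14 and -0.11 ± 0.15. PSMD9, a chaperone of the base, had 9.70, 9.74 and 9.91 in BV and 9.73, 9.66 and 9.88 in mock tissue, a difference of 0.03 ± 0.12 (limma adjusted p = 0.932). PSMF1, also called PI31, differed by 0.14 ± 0.15.

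Probe sets of the same gene did not always agree in sign. Of 18 genes with several tested probe sets, 5 had values on both sides of 0: PSMA2, PSMC2, PSMD1, PSMD9 and PSMG4. PSMD9 ranged from -0.33 ± 0.15 for a dimmer probe set to 0.03 for the brightest, and PSMG4 from -0.11 to 0.31 ± 0.16. The annotation gives PSMG2 to probe sets of 2 gene identifiers; the dimmer one differed by 0.93 ± 0.28 (limma adjusted p = 0.564), with 1.32, 0.10 and 1.38 in animals 1, 2 and 3, against 0.18 for the brightest. Over all 60 tested probe sets 45 were higher and 15 lower in BV tissue, 0 passed in limma, and 9 had an unadjusted p under 0.05, against 8.8% of all tested probe sets. Of these 9, 5 are named PSMC3IP.

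**Figure D4:**
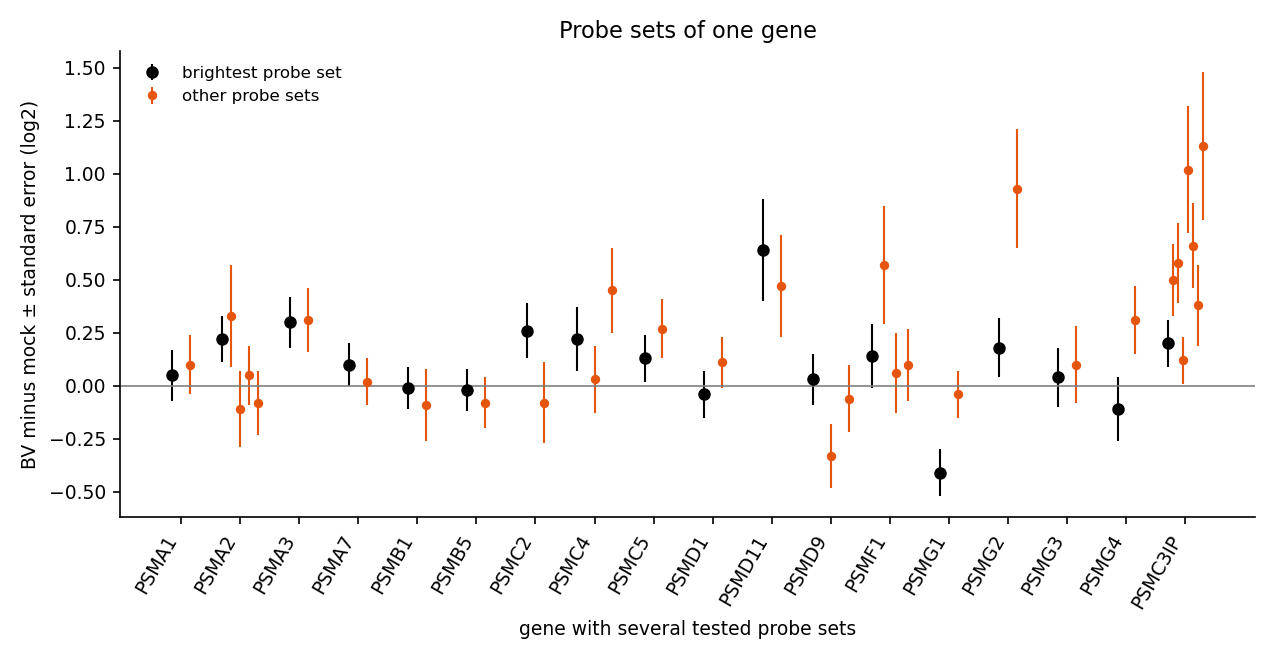
Log2 difference with its standard error for every tested probe set of the 18 genes that have several; black marks the brightest probe set of a gene and orange the others. The 8 probe sets named PSMC3IP run from 0.12 to 1.13, and for PSMG1 and PSMG2 the brightest probe set (-0.41 and 0.18) differs from the other (-0.04 and 0.93).

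PSMC3IP therefore needs separate mention. Its brightest probe set had 11.01, 10.99 and 10.92 in BV and 10.80, 10.95 and 10.58 in mock hemispheres, a difference of 0.20 ± 0.11 (limma adjusted p = 0.573). The 8 probe sets under this symbol all had higher values in BV tissue, from 0.12 ± 0.11 to 1.13 ± 0.35, and 0 passed (limma adjusted p = 0.564 for the 5 with an unadjusted p under 0.05). The 2 with the largest differences, at 1.02 ± 0.30 and 1.13 ± 0.35, had 1.14 and 1.07 in animal 1, 0.18 and 0.20 in animal 2, and 1.74 and 2.11 in animal 3. In replicate pair 6, which holds mock replicate 6 with its high actin ratio, they had 2.36 and 3.12, against 1.12 and 1.10 in replicate pair 5. In replicate pair 4 they had -0.17 and -0.30. Probe sequences were not used here, so what these probe sets detect was not checked. Without PSMC3IP the median of the remaining 28 genes was 0.11, and 21 were higher.

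Differences between animals in the BV effect could not be resolved with these arrays. When limma was asked whether the BV effect varied among animals (an F test on the 12 single arrays), 0 of 29 genes passed, as did 0% of all genes, so the test does not show that the animals responded alike. Of the 29, 0 had an unadjusted p under 0.05, where 2.14% of all genes did. PSMD11 came closest, with a limma adjusted p of 1. Signals varied little over the 12 arrays: the median standard deviation was 0.25 for the proteasome genes, 0.35 for all genes tested and 0.29 for the 1079 genes of like signal.

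Other genes of the ubiquitin and proteasome pathway were described in the same way. Of 41 symbols listed, which include older names, 23 had a tested probe set; 16 were higher and 7 lower in BV tissue, with a median of 0.18, and 0 passed in limma (0.0538% of all genes), while 3 had an unadjusted p under 0.05 (8.69% of all genes), namely PSMB8, PSMB10 and PSME2. Of the 4 genes that govern transcription of proteasome genes, 0 had lower values, and the median was 0.25. By animal that median was 0.09, -0.03 and 0.57 in animals 1, 2 and 3. NFYA, 1 of the 4, differed by 0.00 ± 0.17, with -0.21, -0.13 and 0.34 in the animals. NFE2L2, another, differed by 0.29 ± 0.24, with 0.19, -0.27 and 0.95, and its probe sets ran from -0.08 to 0.72. NGLY1, the glycanase that activates the transcription factor NFE2L1, differed by 0.39 ± 0.17 (limma adjusted p = 0.565), with 0.47, 0.07 and 0.62 in the 3 animals, and NFE2L1, which drives proteasome genes when proteasome activity is short, by 0.20 ± 0.14. SQSTM1, a receptor that carries ubiquitinated cargo to autophagy, differed by 0.28 ± 0.13, and the proteasome's ubiquitin receptor ADRM1 by 0.27 ± 0.16. UBQLN2, a shuttle factor, had -0.31 ± 0.20, and the proteasome-bound deubiquitinase USP14 -0.24 ± 0.15. The limma adjusted p of these last 4 ran from 0.569 to 0.587.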

How the data were processed

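Total RNA (5 µg per array, Trizol and column, per the labels' protocols) from 12 tissue pieces was hybridised to a rhesus macaque array. The authors deposited linear probe set intensity values, 1 column per array; GCOS 1.4.0.036 appears in the submitters' processing notes. Neither the summary algorithm nor the scaling is stated in the sources used. Trimmed means (2% cut at each end) were 100.01 on all piece 2 arrays and 142 to 189 on piece 1 arrays. Values were quantile-normalized and taken as log2(signal + 3.49), the 10th percentile of the deposited intensity values, which understates differences of dim probe sets. After leaving out 99 controls, 31660 of 52766 probe sets at or above the 40th percentile of mean signal (4.95) were tested. Pieces were averaged per hemisphere and fitted in limma 3.58.1 under R 4.3.3, using a term for each animal and a variance trend. This left 2 residual degrees of freedom; two-sided p-values were adjusted by Benjamini-Hochberg over all tested probe sets. The interaction test had 6 residual degrees of freedom. The fits were tested on simulated data.

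The animal is the replicate, since each carries both treatments; deviations of its hemispheres from the group means correlated at 0.622, 0.156 and 0.361 over probe sets in animals 1, 2 and 3. The number of arrays limits the precision. Of all probe sets 24969 had 1 symbol, 361 several and 27535 none listed; cynomolgus RNA may bind rhesus probes less well. The members and lists were chosen with earlier results of these data known. All members were named; values per hemisphere were given for the active subunits and for the gene of smallest p and of largest difference in each class, and beyond the members for PSMB8, PSMB10 and PSME2. The 5 other pathway genes of smallest p were named with their differences (NFE2L1, NFYA and NFE2L2 were added after their values were seen). Alternatives covered the pseudocount, filter, normalization, block, array set, tissue covariates, trend, probe set choice, animals and arrays.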

Additional observations from a re-analysis of the deposited data

Results flagged for a closer look

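Among 64 sets of 6 arrays (the 29 proteasome genes and PSMB8, PSMB10 and PSME2, BV and mock), 4 held an array far from the others, where chance gives about 1 in 20, or 3.2 here. Mock replicate 6 was that array for 3 of them and low in each: PSMC2 at 9.88 (others 10.35 to 10.60), PSMC6 at 8.43 (others 9.53 to 9.77) and PSMD11 at 7.71 (others 9.02 to 9.45). PSMD9 was high in mock replicate 5, at 10.01 (others 9.61 to 9.76). PSMA1 had lower BV values in the 3 pairs of piece 1 and higher ones in the 3 pairs of piece 2, a gap of 0.43; the limma test of that gap gave an adjusted p of 1. PSMD2, with 0.13 in the fit, had lower BV values in both pairs of animal 2 and higher ones in both of animal 3 (-0.07 and 0.27); 0 proteasome genes passed the interaction test.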

How the results depend on the processing

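No proteasome gene passed under any alternative run, and 0 other pathway genes passed except without animal 2 (3; range with animals or arrays left out 0 to 3). The count over all probe sets, 9 in the report, was 55 with the replicate block and ran from 0 to 1845 with animals or arrays left out. The proteasome median of 0.13 was 0.13 with the replicate block of the 6 replicate numbers, which changed no call of a proteasome gene, 0.21 with median centring (where the median of all genes was 0.11), -0.01 in piece 1, 0.24 in piece 2 and 0.00 with the thalamic covariate, and 0.05 to 0.17 with animals or arrays left out. The 22 higher genes were 14 in piece 1, 14 with the thalamic covariate and 27 with median centring, and 16 to 26 with animals or arrays left out. The cause of these shifts was not tested. Both subunit exchange differences kept their sign without normalization, with pseudocounts of 1 and 32, and in piece 1 and piece 2 alone. They were not computed under the other alternatives.

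Of 1109 values of 37 single genes, 1049 kept direction and side, 3 passed newly and 57 changed sign, 52 of them of genes under 0.15 in size. In piece 1 PSMA1 had -0.17, PSMB11 0.03, PSMB7 -0.03, PSMC3 -0.05, PSMC4 -0.11, PSMC6 -0.10, PSMD6 -0.11, PSMD7 -0.02, PSMD9 -0.01 and PSMG2 -0.03. In piece 2 PSMB1 had 0.04 and PSMB5 0.08. With the thalamic covariate PSMA1 had -0.09, PSMB7 -0.05, PSMC5 -0.01, PSMD6 -0.07, PSMD7 -0.04, PSMD9 -0.05 and PSMG3 -0.05, and with the medium spiny neuron covariate PSMA1 had -0.01. With median centring PSMB1 had 0.08, PSMB5 0.07, PSMD1 0.07 and PSMG4 0.03. Averaging probe sets gave PSMD1 0.04, PSMD9 -0.12 and PSMG4 0.10. With animals or arrays left out, ranges that crossed 0 were -0.09 to 0.18 for PSMA1, -0.08 to 0.05 for PSMB1, -0.08 to 0.04 for PSMB5, -0.11 to 0.10 for PSMB6, -0.01 to 0.11 for PSMB7, -0.04 to 0.10 for PSMC3, -0.12 to 0.04 for PSMD1, -0.01 to 0.18 for PSMD6, -0.06 to 0.12 for PSMD9, -0.08 to 0.16 for PSMG3 and -0.21 to 0.02 for PSMG4. PSMB6, at 0.00 in the main fit, was never counted as a change of sign. It had -0.08 in piece 1 and 0.07 in piece 2.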

Other observations

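Signals differed between animals far more for USP14, the deubiquitinase that trims ubiquitin chains on the proteasome, than for any proteasome gene. Its brightest probe set read 7.75, 7.84 and 11.30 in animals 1, 2 and 3 (mean of both hemispheres), and all 5 of its tested probe sets were higher in animal 3, with ranges over animals of 3.55 to 4.4 on the log2 scale. In animal 3 the brightest read 11.16 in the BV and 11.43 in the mock hemisphere, so the difference lay on both sides of the brain. The median range over animals was 0.22 for the 29 proteasome genes and 0.34 for all genes tested. USP14 was chosen here after its values were seen, and with 3 animals no test was made.

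Over the 12 arrays, 19 of the 29 proteasome genes had higher and 10 lower signals on the piece 2 arrays, with a median difference of 0.09 against 0.00 for all genes. The alpha ring genes PSMA1, PSMA2, PSMA3 and PSMA7 had 0.41, 0.38, 0.40 and 0.30, while PSMD2, PSMF1 and PSMD11 had -0.30, -0.23 and -0.22. Piece and array set cannot be told apart.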
